A study of Mus musculus with 6 samples.

Results

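Proteasome genes were taken as all genes whose symbol on the array began with Psma, Psmb, Psmc, Psmd, Psme, Psmf or Psmg followed by a digit, with pseudogene symbols left out. The rule found 50 genes among the 22485 genes named on the array, carried by 71 features. Of these, 48 encode subunits, regulators or assembly factors of the proteasome. The symbols of the other two, Psmc3ip and Psme3ip1, begin like those of the subunits whose products their proteins bind. Psmc3ip is known for its work in meiotic recombination. Both were kept in every count that follows unless stated otherwise. For each gene the feature with the highest mean over the 6 arrays was read.

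The arrays measured total RNA of whole blastocysts of the B6C3F1 hybrid strain on embryonic day 5. Superovulated females aged 6 to 8 weeks were mated, embryos were flushed from the oviduct on day 2, and groups of 30 embryos per condition were cultured for 72 hours in CCM-30 medium. In 3 samples the medium held 400 nM of a mir-30d MIMIC, a synthetic copy of a microRNA, and in 3 samples 400 nM of Scramble-Alexa 488, a control oligonucleotide with a fluorescent dye. Setting the mimic against scramble asks how transcript levels of the embryo respond to added miR-30d, here for the proteasome. All embryos were superovulated, cultured and given a synthetic RNA, and no untreated embryos were analysed here. The dye is named for the control alone, so effects of the dye and of miR-30d cannot be told apart. The titles call the samples biological replicates, but no label says that the cultures came from separate matings, so the spread behind each p-value is that of these 6 samples and may be technical in part.

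The proteasome is the main protease of the cytosol and nucleus. Its 20S core is a barrel of alpha rings that gate the entrance and beta rings that carry the active sites, and its 19S regulator binds ubiquitin-tagged proteins, unfolds them with a ring of ATPases and feeds them into the core. Immune cells and cells that see interferon replace the catalytic beta subunits by inducible ones. In early embryos the proteasome clears maternal proteins as the embryonic genome takes over, and its genes are known to be raised together by the transcription factor Nrf1 when proteolysis falls short.

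Values are log2 signal, so that a difference of 1 is a doubling. Trophectoderm markers, which define the outer layer of the blastocyst, were read well above the dim end of the array. All 6 of them were retained by the filter on dim probes, with gene means from 11.87 to 15.76 for Krt18. The 3 inner cell mass markers had means from 8.10 to 10.28, and the 4 primitive endoderm markers from 9.26 to 11.17. Markers of leukocytes (6 read, median gene mean 7.28), cumulus cells (5 read, 7.11), sperm (5 read, 7.22) and blood (2 read, 7.02) had medians near the filter's limit of 7.16. In the leukocyte list Laptm5 (8.00) and Cd52 (7.90) stood higher. Among 5 oviduct markers only Krt7, which trophectoderm also expresses, stood apart (10.86, against a median of 7.17). The array-wise mean of the leukocyte list was 7.25 to 7.70 with scramble and 7.37 to 7.48 with the mimic, so the groups overlapped. That of the cumulus list was 7.03 to 7.04 with scramble and 6.96 to 7.60 with the mimic. With the mimic 5 of 6 trophectoderm markers were lower (median difference -0.11), from -0.62 for Cdx2 to 0.43 for Tfap2c. The mean was higher in 2 of 3 inner cell mass markers (median 0.25) and in 3 of 4 primitive endoderm markers (median 0.19). Without scramble replicate 1 the inner cell mass median was -0.14. None of these embryo markers had an adjusted p under 0.05 in limma, and their part in the proteasome values was not tested.

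The replicate 1 arrays of both groups stood apart from the other 4. They held 2108 (scramble) and 2683 (mimic) distinct values, where the other arrays held 4410 to 5979. On scramble replicate 1 the value of a proteasome gene was shared exactly by a median of 12 features and by up to 687, and on mimic replicate 1 by a median of 5 and up to 648. On the other arrays the medians were 1 or 2 and the highest 298 to 364. For many, though not all, of the differences that turn on these arrays, values without them are given beside the values with them.

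The mimic did not separate the proteasome genes from the control. Of the 50 genes 49 passed the filter on dim probes, and 0 of 49 had an adjusted p under 0.05 in limma with Benjamini-Hochberg adjustment over all 17399 genes tested (0% of all genes were called). With unadjusted p under 0.05 there was 1 of 49, the chaperone gene Psmg2 on the lower side, where 1.51% of all genes were called lower, 1.66% higher and 3.17% in either direction. With the replicate number as a block 0 of 49 passed the adjusted threshold (0.00575% of all genes), and 3 had an unadjusted p under 0.05 (7.24% of all genes, 3.95% higher and 3.29% lower). In 0 of 49 genes were the arrays of one group all above those of the other, against 9.7% of all genes tested (5.58% higher and 4.12% lower). The counts are for the brightest feature of each gene and do not say that levels were equal. Among the other features of members, 1 of Psme2 did separate the groups, as given with that gene.

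The differences were small on the whole. With the mimic 32 of 49 genes were higher and 17 lower (65.3% higher, against 53.2% of all genes), with a median log2 difference of 0.037 against 0.020 over all genes. Without Psmc3ip and Psme3ip1 it was 30 higher and 17 lower, with a median of 0.029. A log2 difference under 0.1 in size was found in 24 of 49 (49.0%, against 30.1% of all genes), and one over 0.3 in 3 of 49 (6.12%, against 27.8% of all genes). The share under 0.1 was 40.9% in the brightest 25% of all genes, and 14.5% of those genes exceeded 0.3. Without scramble replicate 1 the balance turned, to 17 of 49 higher and a median of -0.060. Without mimic replicate 1 the median was 0.13, and without both replicate 1 arrays 22 of 49 were higher with a median of -0.012. The lean to the higher side thus changed with the removal of 1 array.

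**Figure D1:**
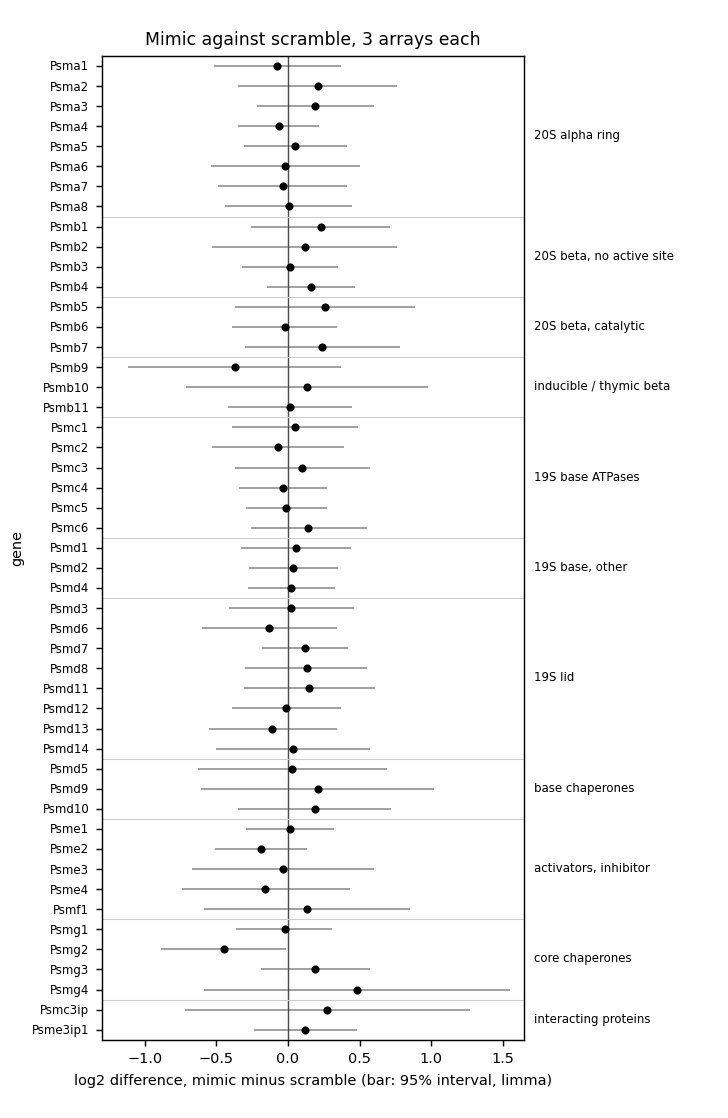
Log2 difference of mimic minus scramble (horizontal axis) for the 49 genes tested, grouped by their place in the proteasome; points are the difference of 3 arrays against 3 and bars the 95% interval of limma. The interval spans 0 in every gene but Psmg2, whose upper bound is -0.011.

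Core and regulator subunits lay closest to no difference. Among the 32 genes of the 20S core and the 19S regulator, inducible beta subunits left out, with the mimic 21 had a higher and 11 a lower mean, from -0.13 (Psmd6) to 0.26 (Psmb5). Psma8 was at the limit of the dim filter, so its interval bounds no change. For the other 31 the limma 95% intervals ran from -0.60 at the lowest bound to 0.89 at the highest, all inside a 2-fold change (a log2 difference of 1) in either direction. With the replicate block the outermost bounds of the 31 were -0.37 and 0.68. Some intervals were much narrower, such as -0.29 to 0.27 for the ATPase gene Psmc5.

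The alpha ring, which forms the gate of the core, split evenly, with 4 members above and 4 below 0 and a median log2 difference of -0.0072 (0.16 without mimic replicate 1). Psma3 had the smallest p of the ring. Its scramble arrays read 12.79, 13.24 and 13.10 and its mimic arrays 12.98, 13.46 and 13.26, replicates 1 to 3 in turn. Each mimic array was above the scramble array of the same number, but the groups overlapped, and the difference was 0.19 (SE 0.18, exact permutation p = 0.4, two-sided). Leaving out 1 array moved it between 0.061 (scramble replicate 1) and 0.32 (mimic replicate 1), with 0.077 when mimic replicate 2 was left out, and it was 0.19 without both replicate 1 arrays. With the replicate block the unadjusted p of Psma3 in limma was 0.0469 and its adjusted p 0.676. Psma2 had a like form, with scramble at 13.53, 14.30 and 13.96 and mimic at 13.79, 14.39 and 14.23, a difference of 0.21 (SE 0.24) that went from 0.0069 (scramble replicate 1 left out) to 0.39 (scramble replicate 2 left out). Psma1, Psma4, Psma6 and Psma7 were between -0.079 and -0.019 and Psma5 was at 0.051. Without mimic replicate 1 Psma1, Psma6 and Psma7 were at 0.11, 0.2 and 0.16, while Psma4 stayed below 0. Without scramble replicate 1 Psma5 was at -0.044. Psma8, the alpha subunit of the testis proteasome, was read at the dim end in both groups, with means of 7.17 and 7.17 and a difference of 0.0052.

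The beta subunits without an active site were all higher in the mean, 4 of 4, with a median of 0.14 that was 0.015 without scramble replicate 1. Psmb4 had the smallest p. It read 13.12, 13.35 and 13.12 with scramble and 13.31, 13.40 and 13.37 with the mimic, so only scramble replicate 2 reached into the mimic range. The difference was 0.16 (SE 0.14, exact permutation p = 0.2). Psmb1 read 11.13, 11.75 and 11.85 against 11.52, 12.01 and 11.89, a difference of 0.23 (SE 0.21, exact permutation p = 0.5). It was higher in all 3 same-numbered pairs, yet the difference was 0.0056 when scramble replicate 1, its lowest array, was left out, 0.37 when mimic replicate 1 was, 0.36 when scramble replicate 3 was and 0.12 when mimic replicate 2 was. Without both replicate 1 arrays it was 0.15. Psmb2 and Psmb3 had differences of 0.12 and 0.015.

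The 3 catalytic subunits of the constitutive core cut after different residues. Psmb5 carries the chymotrypsin-like site. It read 14.05, 14.84 and 14.19 with scramble and 14.25, 15.02 and 14.59 with the mimic, with replicate 2 highest in both groups and replicate 1 lowest. The difference was 0.26 (SE 0.28, exact permutation p = 0.5), and with the replicate block it kept its size with an SE of 0.092 and an unadjusted p of 0.0282 in limma (adjusted p = 0.661). Leaving out mimic replicate 2 or scramble replicate 1 gave 0.061 and 0.10, and leaving out scramble replicate 2 or mimic replicate 1 gave 0.50 and 0.44. Without both replicate 1 arrays it was 0.29. A second, dimmer feature of Psmb5 differed by 0.14. Psmb7, the trypsin-like subunit, read 10.73, 11.05 and 11.70 against 11.22, 11.62 and 11.36, a difference of 0.24 (SE 0.24, exact permutation p = 0.5) that went to 0.027 when scramble replicate 1 was left out and to 0.51 when scramble replicate 3 was. Psmb6, the caspase-like subunit, read 13.01, 13.38 and 13.20 against 12.98, 13.22 and 13.33, a difference of -0.023 (SE 0.16, exact permutation p = 0.8). The sign of Psmb6 turned with single arrays, to 0.077 without mimic replicate 1.

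Of the inducible counterparts Psmb8 and Psmb9 were dim. Psmb10 averaged 8.62 over the 6 arrays, above the median level of all genes tested (7.94). The feature of Psmb8 averaged 6.98 over the 6 arrays and fell under the dim filter, so Psmb8 was not tested. It read 7.20, 6.57 and 7.08 with scramble and 6.88, 7.22 and 6.96 with the mimic, and the groups overlapped fully. Psmb9 read 7.60, 8.07 and 7.82 against 6.86, 7.66 and 7.85. Mimic replicate 1 lay lowest, and the difference of -0.37 (SE 0.33, exact permutation p = 0.5) was -0.075 without it and -0.57 without mimic replicate 3. Psmb10 read 7.70, 8.88 and 9.07 against 8.61, 8.75 and 8.69. Scramble replicate 1 lay lowest, and the difference of 0.13 (SE 0.37, exact permutation p = 1) was -0.29 without it. On that array the value of Psmb10 was shared by 484 features. Psmb11, the thymic form, was at 7.19 and 7.21.

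**Figure D2:**
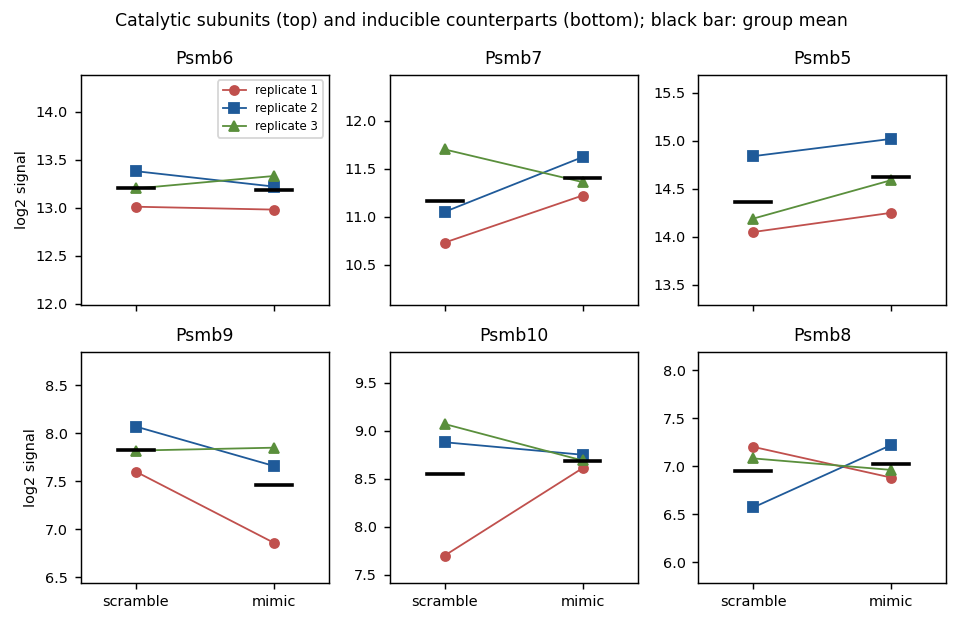
Log2 signal of the catalytic subunits Psmb6, Psmb7 and Psmb5 and their inducible counterparts Psmb9, Psmb10 and Psmb8 with scramble and mimic; lines join arrays of the same replicate number, black bars are group means, and all panels have axes of equal length around their own means. Replicate 1 is lowest in both groups for Psmb6, Psmb7, Psmb5 and Psmb9, and the low point of Psmb10 is scramble replicate 1 at 7.70.

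The genes tested that work beside the inducible subunits in antigen processing had a median level of 7.62, against 7.94 over all genes tested. B2m was brighter, with means of 8.44 with scramble and 8.55 with the mimic. Psmb8 and Psmb9 are neighbours in the mouse genome with the peptide transporter gene Tap1 between them, and Psmb5 and Psmb11 lie side by side. Of 7 antigen-processing genes on the array 6 were tested. The mean was higher with the mimic in 5 and lower in 1 (median difference 0.12), and 0 of 6 were called. Irf1, a transcription factor of the interferon response, read 7.94, 7.46 and 7.70 with scramble and 8.25, 7.90 and 7.80 with the mimic, a difference of 0.28 (SE 0.29). Tap1 read 7.31, 7.42 and 7.24 against 7.50, 7.49 and 7.42. The mimic arrays of Tap1 lay above the scramble arrays, the nearest being equal at this rounding, and the difference was 0.15 (SE 0.20). Tap1 was the 1 of 6 without overlap on the higher side, against 5.58% of all genes tested.

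The base of the 19S regulator holds the ATPases Psmc1 to Psmc6, which unfold substrates. By their brightest features they split evenly around 0 (median 0.018), and 5 of 6 lay within 0.1 of no difference. The exception was Psmc6, with scramble at 10.67, 11.10 and 11.06 and mimic at 10.81, 11.31 and 11.14. It was higher in all 3 same-numbered pairs, by 0.14 in the mean (SE 0.18, exact permutation p = 0.5). That mean difference was 0.0067 with scramble replicate 1 left out, 0.031 with mimic replicate 2 left out and 0.28 with mimic replicate 1 left out. Without both replicate 1 arrays it was 0.15. Second, dimmer features of Psmc1, Psmc2 and Psmc3 differed by -0.063, -0.25 and -0.11, beside 0.049, -0.069 and 0.096 for the brightest. The scaffold subunits Psmd1 and Psmd2 and the ubiquitin receptor Psmd4 had differences of 0.057, 0.038 and 0.024, of which only that of Psmd4 stayed above 0 without scramble replicate 1. Psmd1 read 11.81, 12.18 and 12.11 against 11.79, 12.29 and 12.18 (exact permutation p = 0.7), and its sign turned without scramble replicate 1 (-0.055).

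The lid removes ubiquitin chains before degradation. Of its 8 members 5 lay above 0 and 3 below (median 0.030), but without scramble replicate 1 it was 1 above and 7 below (median -0.11), and without mimic replicate 1 all 8 lay above (median 0.11). Psmd7, the partner of the deubiquitinase, read 10.88, 11.21 and 11.15 with scramble and 11.26, 11.16 and 11.18 with the mimic. Only scramble replicate 1 lay low, and the difference of 0.12 (SE 0.13, exact permutation p = 0.4) was 0.017 without it. Psmd14, the deubiquitinase itself, had a difference of 0.037 (SE 0.24), which was -0.1 without scramble replicate 1. The largest in the lid were 0.15 for Psmd11 and -0.13 for Psmd6. Their signs turned too, to -0.006 for Psmd11 without scramble replicate 1 and to 0.069 for Psmd6 without mimic replicate 1.

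With all arrays in, assembly factors held the widest differences. Without scramble replicate 1 the widest was that of Psmb9 (-0.49), and Psmg2 and Psmg4 were at -0.34 and -0.12. Psmg1 to Psmg4 encode chaperones that build the core. Psmg2 was lower with the mimic and was the single proteasome gene with an unadjusted p under 0.05. It read 10.21, 9.65 and 10.12 with scramble and 9.42, 9.53 and 9.68 with the mimic, a difference of -0.45 (SE 0.19) or 0.732-fold. Each mimic array was below the scramble array of its number, though mimic replicate 3 lay just above scramble replicate 2. The unadjusted p in limma was 0.0454 and the adjusted p 0.972, the exact permutation p was 0.2, and the replicate block gave an unadjusted p of 0.0294 in limma (adjusted p = 0.661). Leaving out 1 array moved the difference between -0.62 (scramble replicate 2) and -0.34 (scramble replicate 1), and it was -0.28 without both replicate 1 arrays. The unadjusted call was not stable, since 0 members had an unadjusted p under 0.05 in limma without scramble replicate 1, without any 1 of the mimic arrays, without both replicate 1 arrays, with array quality weights or without the trend in eBayes.

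Psmg3 read 9.48, 9.94 and 9.68 against 9.89, 9.89 and 9.90, a difference of 0.19 (SE 0.17, exact permutation p = 0.4). Leaving out scramble replicate 1 gave 0.080 and leaving out scramble replicate 2 gave 0.31. Psmg4 had the largest positive difference of all members, 0.48 (SE 0.47), with 1 array far below the rest. It read 7.24 on scramble replicate 1, a value shared by 687 features there, and 8.99, 9.08, 8.85, 8.82 and 9.07 on the others. Without that array the difference was -0.12. Psmg1 differed by -0.024. Pomp, the maturation factor of the core, had means of 11.79 and 11.79.

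The chaperones of the 19S base were higher in the mean, 3 of 3, with a median of 0.19, but without scramble replicate 1 only 1 of 3 was, with a median of -0.17. Psmd10, also known as the oncoprotein gankyrin, read 8.54, 8.81 and 8.78 against 9.11, 8.93 and 8.65, a difference of 0.19 (SE 0.23, exact permutation p = 0.4) that was 0.080 without mimic replicate 1, 0.31 without mimic replicate 3 and -0.0045 without both replicate 1 arrays. Psmd9 repeated the form of Psmg4 and Psmb10, with 7.60 on scramble replicate 1, a value shared by 596 features, and 8.53 to 8.86 on the other arrays. Its difference was 0.21 with and -0.17 without that array, and that of Psmd5 was 0.029 with and -0.17 without it.

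Activators that open the core in place of the 19S regulator were even or lower. Psme1 and Psme2 form the activator PA28, which is induced by interferon. Psme2 read 10.90, 10.84 and 10.99 with scramble and 10.92, 10.52 and 10.72 with the mimic, a difference of -0.19 (SE 0.14, exact permutation p = 0.3). Mimic replicate 1 alone lay within the scramble range, and the difference was -0.086 without mimic replicate 2 and -0.29 without both replicate 1 arrays. A second feature of Psme2 read 9.64, 9.47 and 9.47 with scramble and 9.41, 9.39 and 9.26 with the mimic, so that its groups did not overlap (difference -0.17). The third and dimmest went the other way, by 0.13. The nuclear activator Psme3 and the large activator Psme4 had differences of -0.036 and -0.16, and the inhibitor Psmf1 had 0.13. Without scramble replicate 1 those of Psme3 and Psmf1 were 0.29 and -0.096, and without mimic replicate 1 that of Psme4 was 0.099. Psme3 had its highest value, 10.91, on scramble replicate 1, opposite to most members. Psme3ip1, whose protein binds the nuclear activator, read 9.67, 9.88 and 9.60 against 9.94, 9.86 and 9.71 (0.12, SE 0.16, exact permutation p = 0.3, and 0.063 without scramble replicate 3), and Psmc3ip differed by 0.27 (SE 0.44), with scramble replicate 1 at 7.15 and a difference of -0.21 without it.

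Psme1 was carried by 10 features and shows how far features of 1 gene scatter. Within an array they had an SD of 0.19 to 0.26. Their medians were 10.74, 10.64 and 10.66 on the scramble arrays and 10.80, 10.55 and 10.66 on the mimic arrays. The 10 log2 differences ran from -0.18 to 0.082 with a median of -0.046, and 3 of 10 were above 0. The brightest feature, used for the gene, gave 0.017. The brightest features of the 49 members spread more widely, from -0.45 to 0.48.

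**Figure D3:**
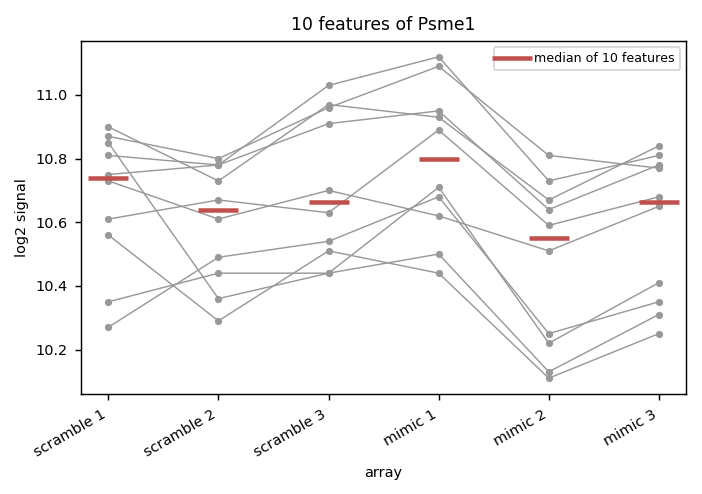
Log2 signal of the 10 features of Psme1 on the 6 arrays; each grey line joins 1 feature across arrays and red bars are the medians, which lie between 10.55 and 10.80. The features keep a spread of 0.19 to 0.26 (SD) on each array, and their medians with scramble and mimic overlap.

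Most proteasome genes differed more between the replicate 1 arrays and the others than between mimic and scramble. This split of the arrays was set after the data had been examined. Its counts describe these arrays and are not a test of the replicate number. Each gene was set against its own mean over the 6 arrays. On scramble replicate 1 only 4 of 49 genes were above their mean (8.16%, against 42.3% of all genes) and on mimic replicate 1 16 of 49 (32.7%, against 45.6%). On the other 4 arrays 33 to 41 of 49 were above. The median deviation of the members was -0.25 and -0.17 on the scramble and mimic arrays of replicate 1, and 0.10, 0.09, 0.13 and 0.08 on scramble 2, scramble 3, mimic 2 and mimic 3. Over all genes the medians stayed between -0.073 and 0.041.

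**Figure D4:**
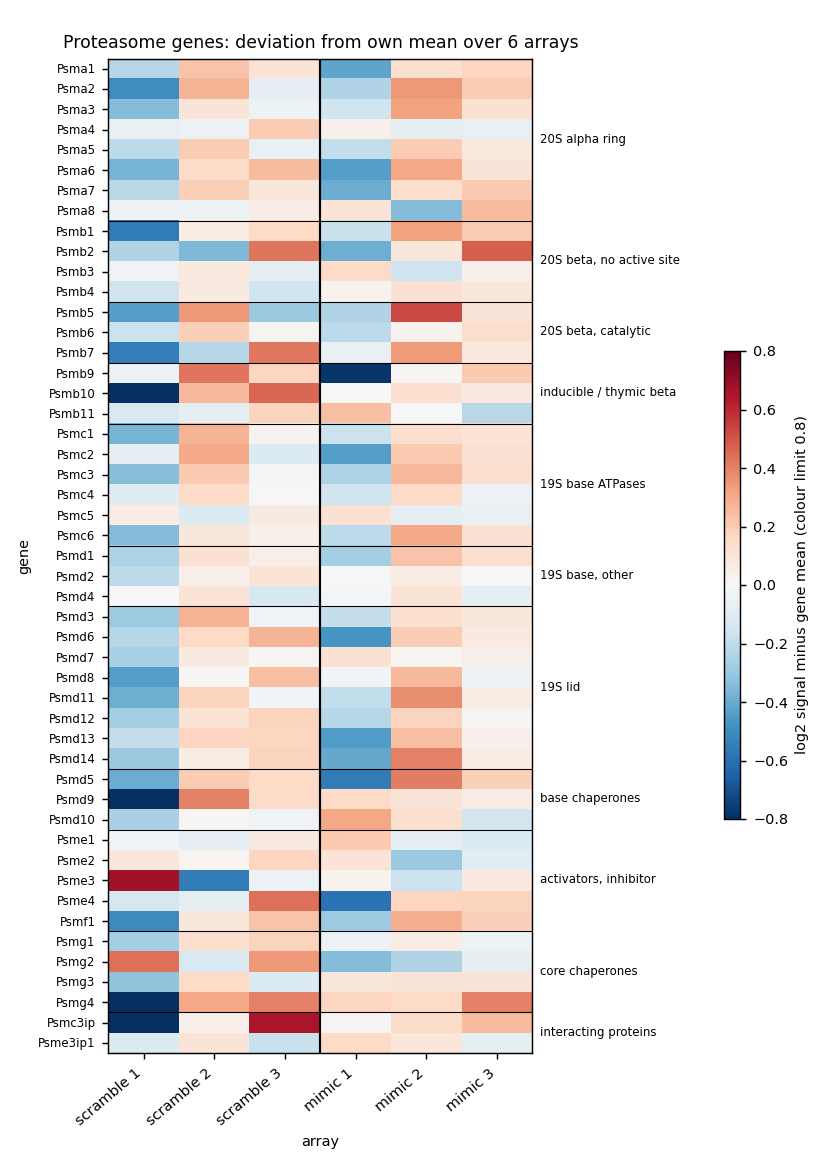
Deviation of each of the 49 genes from its own mean over the 6 arrays, in log2 units (blue below, red above, colours limited at 0.8); columns are arrays, rows are genes grouped by role. The columns of scramble replicate 1 and mimic replicate 1 are mostly blue, with medians of -0.25 and -0.17, and no like shift separates the scramble columns from the mimic columns across the black line.

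Both replicate 1 arrays lay below all 4 others in 27 of 49 genes (23.2% of all genes) and above them in 0 of 49 (13.9% of all genes). The replicate 1 mean was lower than that of the other arrays in 39 of 49 genes, by a median of -0.39, against 55.2% of all genes and a median of -0.05. In the brightest 25% of all genes, in which most core and regulator subunits fall, 30.7% lay below on both and the median was -0.13. The size of the replicate 1 difference exceeded that of the treatment in 40 of 49 members (67.7% of all genes). In limma's F test of the replicate number, added after the data had been examined, 22 of 49 members had an unadjusted p under 0.05 (44.9%, where 19.4% of all genes were called and 34.7% of the brightest 25%), and 0 of 49 passed the adjusted threshold (0.862% of all genes).

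The parts of the proteasome shared this pattern unevenly. In the 19S lid 8 of 8 genes were lower on replicate 1, with a median of -0.41, and in the alpha ring 7 of 8, with a median of -0.43. Psma6 had the largest drop of the ring (-0.61), Psma2 -0.56 and Psma1 -0.48. Of the base ATPases 5 of 6 were lower, Psmc5 being the exception at 0.13. Activators and inhibitor went both ways, 2 of 5 lower with a median of 0.14. Psme3 lay 0.52 above the other arrays, while Psme4 and Psmf1 lay at -0.55 and -0.60. Features of 1 gene did not always share it. The 2 features of Psma4 differed on replicate 1 by -0.015 and -0.65, those of Psmb5 by -0.51 and 0.030, and those of Psmd12 by -0.37 and 0.34. Cell type markers moved on replicate 1 as well. Of the trophectoderm markers 4 of 6 were lower there, with a median of -0.29, from -0.68 for Cdx2 to 0.10 for Gata3. Of the inner cell mass markers 2 of 3 were lower (median -0.33), and of the primitive endoderm markers 2 of 4 (median -0.06). The number of distinct values per array moved with the pattern too. The part of the markers and of the distinct values in the result was not tested. Fewer cells of a type and less RNA per cell cannot be told apart in whole embryos.

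**Figure D5:**
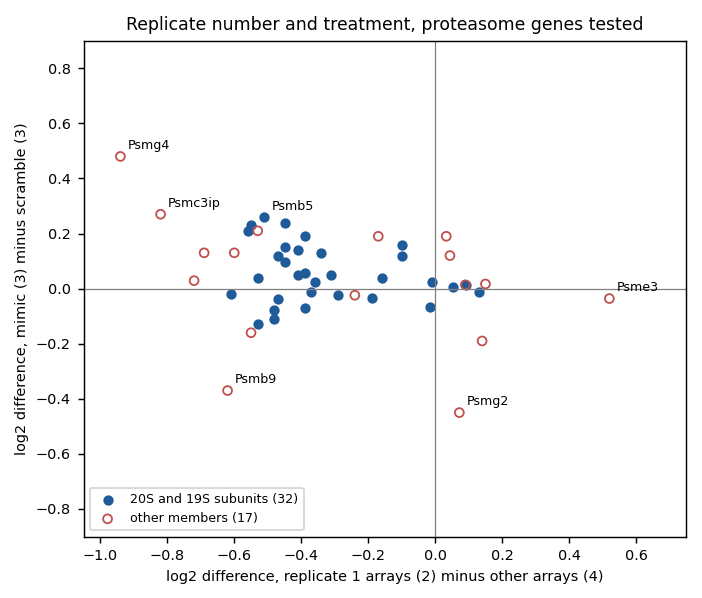
Log2 difference of the 2 replicate 1 arrays minus the 4 other arrays (horizontal) against mimic minus scramble (vertical) for the 49 genes; filled points are the 32 core and regulator subunits, open points the 17 other members. The filled points spread from -0.61 to 0.13 along the horizontal axis and from -0.13 to 0.26 along the vertical axis.

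Taking the replicate number into the model narrowed the errors of proteasome genes. The median SE of a member's log2 difference was 0.195 without and 0.106 with the replicate block, and over all genes it was 0.249 and 0.204. The sign was positive in all 3 same-numbered pairs in 9 of 49 members (19.1% of all genes) and negative in all 3 in 1 of 49, Psmg2 (13.9% of all genes). The 9 were Psma2, Psma3, Psma5, Psmb1, Psmb4, Psmb5, Psmc3, Psmc6 and Psmd11, all of them core or regulator subunits. On the higher side the share of all 49 members was near that of all genes, and on the lower side it was below it.

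The stretches before the start sites of 2 subunit genes are shown because Nrf1 is known to act through antioxidant response elements in such stretches. They are the 250 bases before the RefSeq start (GRCm38.p6), 5′ to 3′ on the strand of the gene, with matches to TGACNNNGC, the core letters of the element, and to CCGGAAG, the core of ETS factor sites, in capitals on either strand. Psmb5 lies at chr14:54617996-54618245, minus strand, and Psmd12 at chr11:107479278-107479527, plus strand.
Psmb5: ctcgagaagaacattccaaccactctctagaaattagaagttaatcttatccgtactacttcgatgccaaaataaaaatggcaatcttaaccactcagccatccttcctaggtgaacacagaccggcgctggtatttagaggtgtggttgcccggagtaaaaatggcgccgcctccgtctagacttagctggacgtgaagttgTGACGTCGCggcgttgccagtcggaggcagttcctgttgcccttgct
Psmd12: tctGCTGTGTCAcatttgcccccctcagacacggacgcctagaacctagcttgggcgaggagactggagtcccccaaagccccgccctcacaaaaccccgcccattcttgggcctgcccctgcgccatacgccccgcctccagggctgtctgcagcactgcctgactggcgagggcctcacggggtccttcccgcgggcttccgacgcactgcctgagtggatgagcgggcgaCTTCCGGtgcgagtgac

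Psmb5 holds 1 match to TGACNNNGC and Psmd12 holds 1 match to each string. Of the 4 core and regulator subunits with a match to TGACNNNGC only these are shown, since windows that reach into an annotated gene were left out. A promoter window was found for 42 of the 50 genes, 46 windows in all. TGACNNNGC was in 5 of 46 member windows (10.9%, against 10.2% of all 32851 windows), CCAAT in 34.8% (33.8% of all) and CCGGAAG in 14 of 46 (30.4%, against 6.91% of all). GGCGG was in 82.6% (45.1% of all) and TGACTNNGC, which is a stricter form of the first string, in 2.17% (3.09% of all). Among core and regulator subunits with a window, the replicate 1 difference had a median of -0.39 both in the 4 with TGACNNNGC (Psmb5, Psmb6, Psmc6 and Psmd12) and in the 21 without, and of -0.41 and -0.36 in the 9 with and the 16 without CCGGAAG. The median treatment differences were 0.06 and 0.02 with and without TGACNNNGC. The matches describe letters in these windows, and a part of Nrf1 in the replicate 1 pattern was not tested.

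Genes around the proteasome were read from lists of known partners. Nfe2l1, which encodes Nrf1, was at 8.59, 8.69 and 9.16 with scramble and 7.69, 8.76 and 8.59 with the mimic, a difference of -0.47 (SE 0.34), with mimic replicate 1 lowest and a difference of -0.14 without it. Of 9 genes of the Nrf1 route and the Vcp segregase 6 lay above 0 and 3 below (median 0.031), and 0 of 9 were called. Syvn1, the ubiquitin ligase of the endoplasmic reticulum membrane, read 11.06, 11.44 and 11.21 against 11.73, 11.83 and 11.61. All mimic arrays of Syvn1 were above all scramble arrays, by 0.49 in the mean (SE 0.14), with an unadjusted p of 0.00696 and an adjusted p of 0.972 in limma. Vcp, the ATPase that pulls tagged proteins from membranes, read 12.31, 12.54 and 12.53 against 12.57, 12.86 and 12.76, also without overlap, a difference of 0.27 (SE 0.14). Syvn1 and Vcp were named for the smallest p in this list. They were the 2 of 9 without overlap on the higher side, against 5.58% of all genes tested. Syvn1 was the 1 of 9 with an unadjusted p under 0.05 in limma (1.66% of all genes on the higher side).

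Of 15 proteasome-associated factors 11 lay above 0 and 4 below (median 0.013; 7 and 8 without scramble replicate 1), and 0 of 15 were called. Uchl5, a deubiquitinase docked on the 19S regulator, read 10.81, 11.04 and 10.99 with scramble and 11.18, 11.50 and 11.47 with the mimic. Its groups did not overlap, and the difference was 0.44 (SE 0.14, unadjusted p 0.0127 and adjusted p 0.972 in limma). Uchl5 and Ubqln4 (0.32) were the 2 of 15 without overlap on the higher side, against 5.58% of all genes tested. Uchl5 was the 1 of 15 with an unadjusted p under 0.05 in limma (1.66% of all genes on the higher side). The shuttle factor Ubqln2 read 9.28, 9.99 and 10.50 against 10.16, 10.29 and 10.42, with scramble replicates 1 and 2 below the mimic range and scramble replicate 3 above it (0.37, SE 0.28, and 0.044 without scramble replicate 1). Usp14, another deubiquitinase of the regulator, differed by -0.051 (SE 0.19). Of the ubiquitin list only Uba6, an activating enzyme, was read, with a difference of -0.054 (SE 0.31).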

How the data were processed

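Log2 signal, as deposited by the authors, was read for 45220 features of 6 one-colour arrays labelled with Cy3 after T7 amplification of 50 ng of total RNA (RIN above 9.0), per the labels. No source used here states how the signal was extracted or normalized. Array medians were 7.366 to 7.376, so a change shared by most genes cannot be seen. Features were named from the platform annotation (33026 with 1 symbol, 0 with several, 12194 with none), and current symbols were taken for all genes but the members from a RefSeq table of GRCm38.p6, joined on the Entrez identifier (98.2% matched). Coordinates are those of the RefSeq promoter table. The sequence of miR-30d is not shown.

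Probes in the lowest 25% by mean over the 6 arrays were left out (24769 kept), and the brightest probe was used per gene. The groups were set against each other in R 4.3.3 by the two-sided moderated test of limma 3.58.1 (lmFit, then eBayes with trend), with Benjamini-Hochberg adjustment over 17399 genes and a threshold of 0.05. SE is the moderated standard error, and single genes were also tested by an exact permutation of 3 against 3 arrays (20 splits, smallest two-sided p 0.1). The number of arrays limits the precision. Figures were drawn with matplotlib 3.10.9.

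Same-numbered arrays deviated together from their group means (correlations of 0.328, 0.349 and 0.204 for replicates 1, 2 and 3), each above the 0.1 asked of a pair. Scramble replicate 2 with mimic replicate 3 (0.185) and scramble replicate 3 with mimic replicate 2 (0.124) also exceeded it. The rule therefore cannot tell pairing by number from pairing with replicates 2 and 3 exchanged. Block values and counts of same-numbered pairs rest on pairing by number, which is not established. The pairing is read from the data. Values are from the model without the block unless stated.

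Per-array values were given for the 3 genes of smallest p in each direction, the catalytic and inducible beta subunits, and the gene of smallest p in each group of subunits, and for partner lists the 2 genes of smallest p. Others named (Psma2, Psmg4, Psmd9, Nfe2l1 and Usp14 among them) were picked after their values were seen. Leaving out arrays was extended to all members, partner genes and groups of subunits after the data had been examined. Members and lists were chosen with earlier results of these data known. Probes of genes with pseudogene copies may also take up signal from those copies.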

Additional observations from a re-analysis of the deposited data

How the results depend on the processing

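No proteasome gene passed the adjusted threshold under any of the 16 alternatives, and the count of members past it was 0 in each. The lowest adjusted p of the 16 named members tested was 0.661 in limma. The count of all genes past the threshold was 0 except with the replicate block, where it was 1. The number of members at an unadjusted p under 0.05 was 1, 3 with the replicate block, and 0 under 7 of the 16 alternatives (without the eBayes trend, with array weights, without scramble replicate 1, without each mimic array and without both replicate 1 arrays). With the block no member's adjusted call changed. With each array left out in turn the members higher with the mimic numbered 17 to 38 and the median log2 difference went from -0.060 to 0.13, the lowest of both without scramble replicate 1 and the highest without mimic replicate 1. Quantile normalization of the named features, centring on the median and centring on the 75th percentile gave 29, 31 and 28 higher members, and medians of 0.019, 0.028 and 0.019. Array quality weights gave 27 and 0.014. The replicate block, the eBayes trend and the other dim filters left the log2 differences of named members unchanged, so their signs could not turn there. Most named members were also picked for a small p, so the next count does not measure the stability of all members. Of 256 values of named members, the unchanged ones included, 246 had the sign first given and 10 the other, none of them called. Those were Psmb6 with array weights (0.0073), without scramble replicate 2 (0.066) and without mimic replicate 1 (0.077), Psmb10 with array weights (-0.17), and also when scramble replicate 1 (-0.29) or both replicate 1 arrays (-0.26) were left out, Psmd1 without scramble replicate 1 (-0.055) and without mimic replicate 2 (-0.045), and Psmd10 (-0.0045) and Psmd7 (-0.014) without both replicate 1 arrays. With single arrays left out the differences ran from -0.12 to 0.077 for Psmb6, from -0.29 to 0.39 for Psmb10 and from -0.055 to 0.21 for Psmd1. The causes were not tested. No detection flags were used here, so differences of dim members (Psma8, Psmb8, Psmb11 and Psmb9) may understate the true ones.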
